A study of Mus musculus with 2 samples.

Results

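Mir297, Mir466, Mir467 and Mir669 are microRNA families whose genes sit for the most part in a dense cluster within the mouse gene Sfmbt2. Their levels were examined in left cerebral cortex. Members were taken by gene symbol: any microRNA gene named for 1 of the 4 families, with or without a letter and a copy number. This gave 81 members among 2202 microRNA genes, 6 of the Mir297, 28 of the Mir466, 17 of the Mir467 and 30 of the Mir669 family. By position, 71 lay inside Sfmbt2 on chromosome 2 and 10 lay on other chromosomes. The data were 2 small RNA sequencing libraries of 1 group, labelled as biological replicates 1 and 2, from the left cerebral cortex of male B6CASTF1/J mice at 14 days of age. Animals of this kind are hybrids, with a C57BL/6 and a CAST/Ei parent. No allele, treatment or other genotype is labelled, and the counts do not separate the parental alleles. The libraries carry the same donor label and the tissue records read "3x Males", which the labels do not explain, so the spread between them may be technical. With 1 group there was no comparison of conditions.

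MicroRNA genes give rise to hairpin transcripts that are cut to a short mature strand, which pairs with messenger RNAs mainly through its seed, bases 2 to 8. Sfmbt2 encodes a Polycomb-group protein and is imprinted in the mouse, with expression from the paternal allele best known in early embryos and in the placenta. The microRNA cluster in its intron is found in rodents, is built of repeated units and is known from embryonic stem cells and placenta. How these microRNAs are used in cortex is less well described.

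Mature sequences of 8 of the 81 members, all outside Sfmbt2, were matched in the RefSeq table (GRCm38.p6). They are shown because they were the only members with a matched mature sequence. They carry runs of alternating UG or CA bases, a feature of most Mir466, Mir467 and Mir669 hairpins. None is of the Mir297 family. Of their genes only Mir466q had any counts, 2 in replicate 1 and 1 in replicate 2. Capitals mark the seed.
mmu-miR-466q (chromosome 3): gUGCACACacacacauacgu
mmu-miR-466k (chromosome 3): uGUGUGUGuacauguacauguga
mmu-miR-669n (chromosome 3): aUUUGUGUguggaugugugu
mmu-miR-467g (chromosome 5): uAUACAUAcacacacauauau
mmu-miR-467h (chromosome 9): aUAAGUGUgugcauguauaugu
mmu-miR-466j (chromosome 10): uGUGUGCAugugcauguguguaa
mmu-miR-467f (chromosome 11): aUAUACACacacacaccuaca
mmu-miR-466i-3p (chromosome 13): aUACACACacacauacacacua
The longest alternating run was 12 bases in miR-466q and miR-467f and 7 bases in miR-467h and miR-466j. Mir297 hairpins also reached runs of 7 bases. No seed was shared among the 8, not even within the 4 of the Mir466 or the 3 of the Mir467 family.

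The hairpins of the 4 families were richer in such runs than other microRNA genes. The longest run of alternating TG or CA in a hairpin had a median of 9 bases over the members (range 6 to 28), against 4 bases over the 2121 other microRNA genes. The letters TGTGTGTG or CACACACA, searched on the annotated strand, where the second is the reverse complement of the first, were present in 66 of 81 members (81.5%) and in 11.7% of all microRNA genes. They were present in 27 of 28 Mir466 hairpins, 15 of 17 Mir467 hairpins, 24 of 30 Mir669 hairpins and 0 of 6 Mir297 hairpins. The longest run of the set, 28 bases, was in Mir466q. A match describes the letters of the hairpin only.

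Inside Sfmbt2 (chromosome 2, 10370510 to 10595253, plus strand, mm10) all 71 members lay on the strand of the host gene and none overlapped an exon. They fell in a single intron between 10461473 and 10523944, which is intron 10 of one annotated protein-coding transcript and intron 11 of another. The members spanned 51.6 kb, from 10466663 to 10518279. In the middle of this stretch the genes repeat as a unit of Mir467a, Mir466 and Mir669a or Mir669p copies. Of the 9 intervals between the 10 successive Mir467a copies, 7 were 2413 to 2470 bases long and 2 were 4880 bases. Each of the longer intervals holds a related gene with another symbol near its middle: Mir467b starts 2450 bases after Mir467a-2, and Gm25022, a copy of Mir467a by sequence, starts 2429 bases after Mir467a-9. Identical hairpins were found in 24 members, in 6 groups. The largest groups were 9 copies of Mir669a (Mir669a-4 to Mir669a-12), 6 copies of Mir467a and a further 3 copies of Mir467a.

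Of the 10 members elsewhere, Mir466q lay in an intron of Tnik on the same strand. Mir467f lay in an intron of Fxr2, Mir466i of Cdk13, Mir466k of Gm37240, Mir669n of Slc30a7 and Mir467g of Grk4, each on the opposite strand to its host. Mir466j, Mir466f-4, Mir297-1 and Mir467h lay in no other annotated gene.

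The files hold raw counts of reads on the strand of each gene, summed over the hairpin, so the arms are not separated. The gene counts summed to 4111167 in replicate 1 and 3189903 in replicate 2, and CPM is the count per 1000000 of these. Reads that matched several genomic positions were given to no gene and made up 39.1% and 41.4% of all reads. This bears on nearly all members: 80 of 81 share a stretch of 18 bases with another microRNA gene, and their counts are uncertain for that reason and can be too low. The labelled tissue was checked by its markers. The neuronal list (Mir124a, Mir9, Mir128, Mir137, Mir138, Mir139 and Mir132) summed to 139377 to 149768 CPM. Of its 13 genes 9 had 10 counts or more in each library, and Mir124a-1, Mir124a-2, Mir124a-3 and Mir9-2 did not. Mir124a and Mir9 are each annotated as several copies, so their counts can also be too low, which was not tested. Mir139 alone gave most of the sum: 101560 of 149768 CPM for replicate 1, and for replicate 2 83088 of 139377. The muscle list (Mir1a, Mir133a, Mir206, Mir208a) summed to 22.1 to 25.1 CPM. The lists for oligodendrocytes (3 genes), endothelium (1 gene) and microglia and leukocytes (4 genes) were detected in full. They summed to 2531 to 2864, 10449 to 13176 and 6833 to 9161 CPM. Those for liver (1 gene) and red cells (2 genes) were also detected in full, at 48.0 to 86.2 CPM, so detection alone did not set the lists apart. Mir342 held 5821 and 7986 CPM of the microglia and leukocyte sums. Mir223 of that list stood at 16.5 and 19.1 CPM, below the liver gene Mir122. The list for pluripotent and trophoblast stem cells stood at 0.313 to 0.486 CPM, with Mir290a, Mir291a and Mir295 at 0 counts.

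The counted reads of the 4 families, which leave out those matching several positions, fell on a few hairpins of the Mir467 and Mir669 families inside Sfmbt2. Detection was set at 10 counts or more in each library, which 8 of 81 members reached (9.88%), against 18.4% of all 2202 microRNA genes. All 8 lie inside Sfmbt2: Mir467d, Mir467e and Mir467c of the Mir467 family and Mir669c, Mir669o, Mir669l, Mir669e and Mir669h of the Mir669 family. They held 13190 of the counts of both libraries, and the other 73 members together held 10 counts in replicate 1 and 6 in replicate 2. No member of the Mir466 or Mir297 family was detected. The threshold fell in a wide gap, between Mir669h with 38 and 25 counts and Mir466n with 4 and 2.

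The members together held 0.201% of the counts in replicate 1 (exact Clopper-Pearson 95% interval 0.197 to 0.205%) and 0.155% in replicate 2 (0.151 to 0.159%), a mean of 0.178% ± 0.0327 (SD, n = 2). Such intervals cover counting error only: without molecular identifiers, reads cannot be taken as independent molecules. The share was higher in replicate 1 than in replicate 2, and the intervals did not overlap. Of the members' counts, the Mir467 family held 65.7% ± 1.10 and the Mir669 family 34.2% ± 1.13 (SD, n = 2). The Mir466 family, the second largest by gene number, held 6 counts in replicate 1 and 4 in replicate 2, and the Mir297 family held 1 and 2.

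Mir467d (ENSMUSG00000077021.2; chromosome 2, 10507630 to 10507714, plus strand) led the families. It had 3646 counts in replicate 1 and 2171 in replicate 2, or 887 and 681 CPM (784 ± 146, SD, n = 2). That placed it 118th of 2202 microRNA genes by mean CPM. It held 44.0% ± 0.104 of the members' counts, nearly the same share in each library. The genes outside the families nearest to it in level were Mir181a-1 (831 ± 254 CPM), Mir490 (814 ± 94.0 CPM) and Mir150 (813 ± 20.0 CPM) above and Mir31 (777 ± 436 CPM), Mir185 (769 ± 841 CPM) and Mir455 (758 ± 72.0 CPM) below. These genes were picked for their nearness in mean CPM, so it was fixed beforehand that Mir467d would not stand apart from them.

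Mir669c (ENSMUSG00000076118.1; chromosome 2, 10509296 to 10509404) had 1954 and 996 counts, or 475 and 312 CPM (394 ± 115, SD, n = 2). Mir467e (ENSMUSG00000076948.2; chromosome 2, 10505721 to 10505807) had 1522 and 979 counts, or 370 and 307 CPM (339 ± 44.8). Mir467d was above both in each library, while the ranges of Mir669c and Mir467e overlapped, so their order is not set. Mir467d, Mir669c and Mir467e are neighbours within the intron and together held 85.0% ± 1.56 of the members' counts.

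Mir669o (ENSMUSG00000077086.1; chromosome 2, 10514300 to 10514395) had 630 and 436 counts, or 153 and 137 CPM (145 ± 11.7, SD, n = 2). Mir669l (ENSMUSG00000076959.1; chromosome 2, 10468971 to 10469068) had 224 and 159 counts, or 54.5 and 49.8 CPM (52.2 ± 3.28). Mir467c (ENSMUSG00000077049.2; chromosome 2, 10473931 to 10474027) had 200 and 134 counts, or 48.6 and 42.0 CPM (45.3 ± 4.70). The ranges of these 3 did not overlap, although Mir669l exceeded Mir467c only 1.15-fold ± 0.0471. Mir669e (ENSMUSG00000080653.1; chromosome 2, 10467495 to 10467613) had 43 and 33 counts, or 10.5 and 10.3 CPM. Mir669h (ENSMUSG00000080594.1; chromosome 2, 10518155 to 10518279) had 38 and 25 counts, or 9.24 and 7.84 CPM. These are the members nearest to the detection threshold, and they lie near the ends of the cluster. Per 100 hairpin bases the mean CPM values gave the same order, except that Mir467e (389) stood above Mir669c (361).

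**Figure D1:**
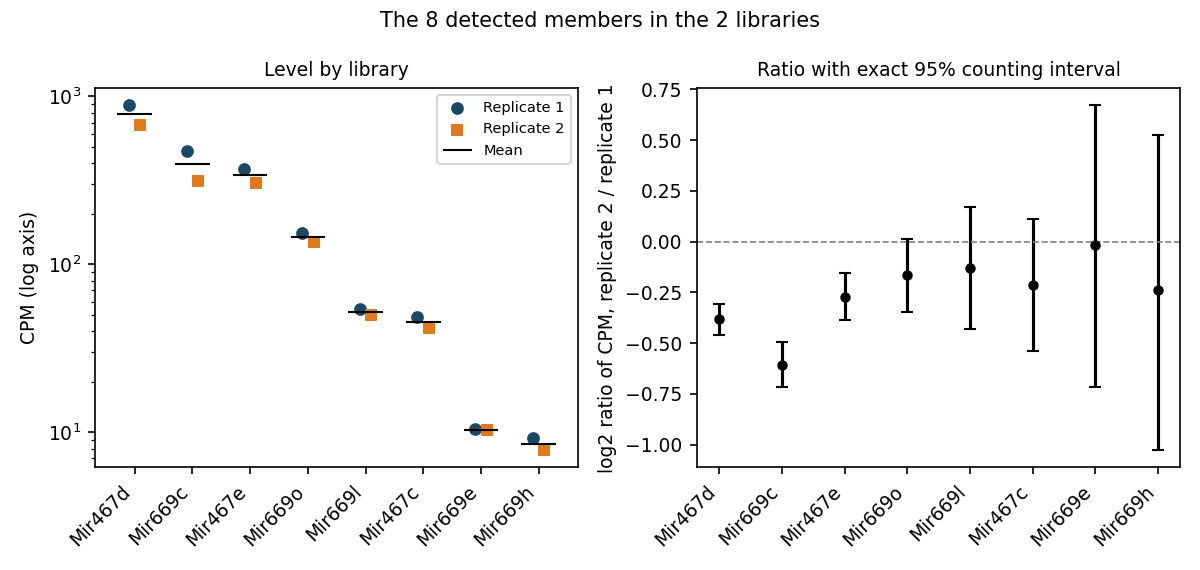
Left, CPM (log axis) of the 8 detected members in replicate 1 (circles) and replicate 2 (squares), with the mean as a line; right, the log2 ratio of CPM of replicate 2 over replicate 1, with its exact 95% counting interval as a bar. Levels run from 784 CPM for Mir467d to 8.54 CPM for Mir669h, and the intervals of Mir467d, Mir669c and Mir467e lie wholly below 0.

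To ask which members differed between the libraries, the part of a gene's reads found in replicate 2 was tested against that library's part of all counts (two-sided exact binomial test, Benjamini-Hochberg adjustment over all 406 detected genes). The test allows for read sampling alone and says nothing of conditions. Mir669c was lower in replicate 2 (log2 ratio -0.61, 95% interval -0.72 to -0.50; adjusted p = 2.06e-27, exact binomial test). So was Mir467d (-0.38, -0.46 to -0.30; adjusted p = 2.98e-22, exact binomial test). Mir467e was lower as well (-0.27, -0.39 to -0.15; adjusted p = 1.02e-05, exact binomial test). The other 5 detected members did not pass the test, and 0 were higher in replicate 2. The log2 ratios of these 5 were -0.16 for Mir669o (95% interval -0.34 to 0.01), -0.13 for Mir669l (-0.43 to 0.17), -0.21 for Mir467c (-0.54 to 0.11), -0.24 for Mir669h (-1.03 to 0.53) and -0.02 for Mir669e (-0.72 to 0.67). Over all detected genes 34.7% were lower and 23.4% higher in replicate 2 by this test.

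The median log2 ratio was -0.22 over the 8 detected members and -0.08 over all 406 detected genes, of which 56.9% had a ratio below 0. All 8 members had a ratio below 0, although that of Mir669e turned positive with TMM or DESeq2 library sizes. In absolute size the members' median log2 ratio of 0.22 was smaller than the 0.30 of all detected genes. No test over samples was made: with 2 libraries the exact sign-flip test, two-sided, cannot go below 0.5.

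**Figure D2:**
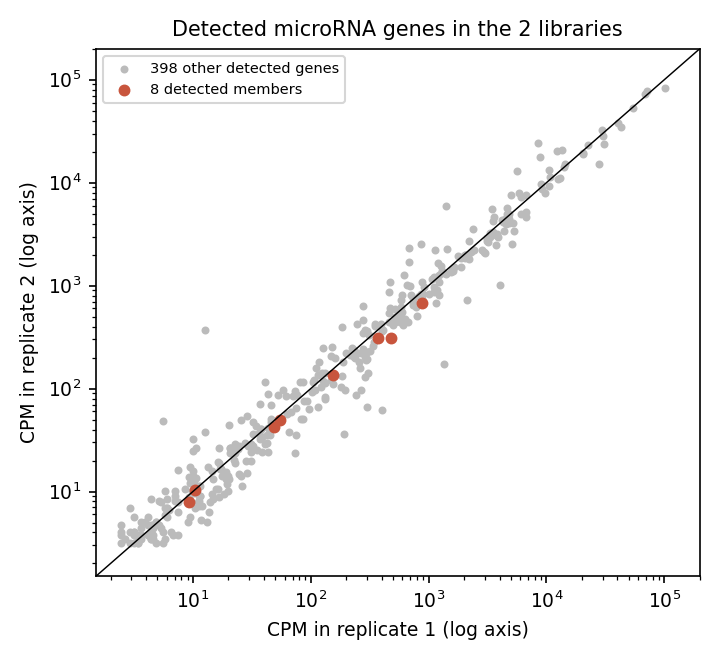
CPM in replicate 1 (horizontal) and replicate 2 (vertical), both on log axes, for the 406 detected microRNA genes; the 8 detected members are in red and the line marks equal CPM. The members lie on or just below the line, within the cloud of the other 398 genes.

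Along the intron, the detected members lay at both ends and none in the middle. At the end nearer to the Sfmbt2 start, from Mir466m to Mir467c, 3 of 13 members were detected (Mir669e, Mir669l and Mir467c), and this end held 6.16% of the members' counts on average. From Mir467e onward 5 of 20 members were detected, and this end held 93.8%. Between Mir467c and Mir467e lie 38 members within 31.7 kb (10474028 to 10505720), and all 38 had 0 counts in both libraries. The bounds of this middle part were drawn with the counts in view. The middle holds the Mir467a, Mir466b, Mir466c and Mir669a repeat units, and 31 of its 38 members have no 22-base window of their own. For these 31, 0 counts therefore set no limit on abundance. The other 7 share at least 18 bases with another microRNA gene, as all 8 detected members do. Up to 40.0% of their windows are their own, against 39.1% for the detected Mir467d. What limit the 0 counts of these 7 set was not tested.

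**Figure D3:**
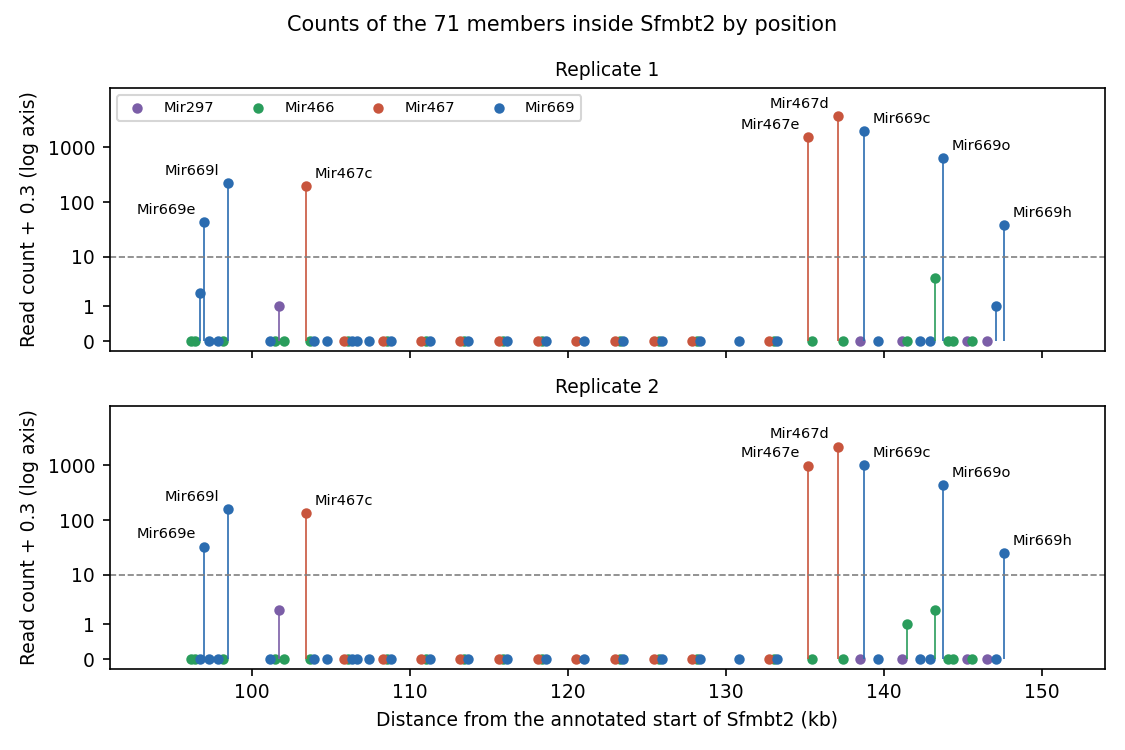
Read counts (log axis, with 0.3 added so that 0 can be drawn) of the 71 members inside Sfmbt2 against distance from the annotated Sfmbt2 start in kb, replicate 1 above and replicate 2 below; colours give the family and the dashed line the detection threshold of 10 counts. In both libraries the counts sit at the ends of the cluster, led by Mir467d, and the 38 members between Mir467c and Mir467e are at 0.

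How much sequence a member has to itself was measured as the share of 22-base windows of its hairpin that occur in no other microRNA gene on either strand. The windows were not searched in the rest of the genome, so the share is an upper limit. The median was 31.8% over the members and 100% over the other microRNA genes. There were 32 members with no such window, all with 0 counts in both libraries. Outside the families, 2 of 265 genes with no such window were detected (0.755%) and 396 of 1856 with one (21.3%). Among the 49 members with a window of their own 8 were detected (16.3%). These sets are unlike: the median share of such windows was 44.2% over the 49 members and 100% over the 1856 other genes. A band of genes with 30 to 80% of windows their own was also taken, without a prior plan for its bounds. In this band, 6 of 30 members (20.0%) and 5 of 331 other genes (1.51%) were detected. The difference was not tested.

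The 8 detected members ranged from 39.1% of windows for Mir467d to 96.9% for Mir669e, with a median of 61.1%. The 41 undetected members that have such a window ranged from 13.2% to 100%, with a median of 41.6%. The leading member had the least sequence of its own among the 8. Across the 81 members Spearman's rho between this share and the summed count was 0.42, a description over genes of the same 2 libraries that share sequence. More sequence of their own did not go with counts in every case: of the 11 members with over 80% of such windows, 9 had 0 counts in both libraries, and only Mir669c and Mir669e had any. Mir466g shares no 18-base stretch with another microRNA gene and had 0 counts in both libraries. If its reads match no other place in the genome, which was not searched, about 3 counts is the one-sided 95% upper limit for a count of 0. That is 0.730 CPM for replicate 1 and 0.940 CPM for replicate 2, and it covers read sampling only.

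**Figure D4:**
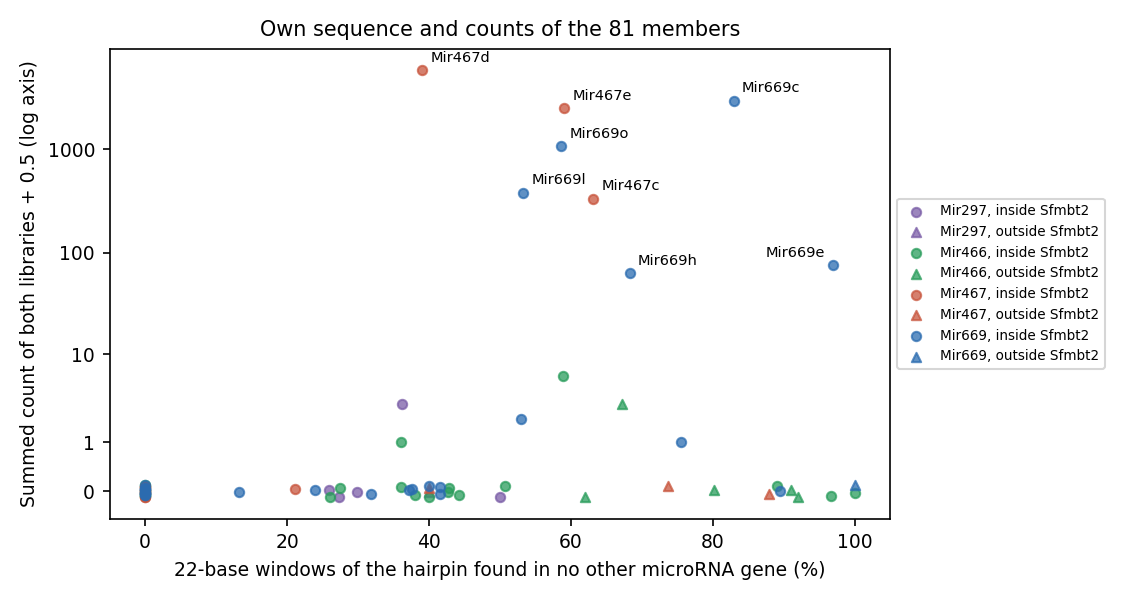
Summed count of both libraries (log axis, with 0.5 added; points at 0 are spread slightly for visibility) against the percentage of 22-base hairpin windows found in no other microRNA gene, for the 81 members; circles are inside and triangles outside Sfmbt2, colours give the family. The 32 members at 0% have no counts, and the 8 named detected members lie between 39.1% and 96.9%.

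The detected hairpins were compared with the other members by global alignment. Mir467d and Mir467e were each other's nearest member at 92.0% identity, and Mir467c was closest to Mir467e at 83.7%. The 3 detected Mir467 hairpins are therefore close relatives, and reads that match several of them are not counted. Mir467d shares a stretch of 60 bases with 10 other microRNA genes, among them 9 copies of Mir467a that had 0 counts. Mir669o was 92.8% identical to Mir669a-1 and shares 38 bases with 12 genes, mostly Mir669a copies. Of the other detected Mir669 hairpins, Mir669l was nearest to Mir669d-2 (83.7%), Mir669h to Mir669i (82.0%), Mir669c to Mir669a-3 (77.8%) and Mir669e to Mir669d (72.7%). None of those 4 nearest relatives was detected. Mir669i had 1 count in replicate 1, and Mir669d, Mir669d-2 and Mir669a-3 had 0 counts.

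Below the threshold, 6 members had a few counts. Mir466n had 4 and 2, Mir297a-2 had 1 and 2, Mir466q had 2 and 1, Mir669f had 2 and 0, Mir669i had 1 and 0 and Mir466d had 0 and 1 in replicates 1 and 2. These are at or near the level of single reads, and no difference between them can be read. Mir466q was the only member outside Sfmbt2 with a count. The remaining 67 members had 0 counts in both libraries, 58 inside Sfmbt2 and 9 outside. The members outside have more sequence of their own than those inside (median 77.0% of windows against 25.9%). Of the 10 outside 0 were detected and of the 71 inside 8, against 18.4% of all microRNA genes, and the difference was not tested.

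Sfmbt2 also holds 48 microRNA gene models that do not carry the symbols of the 4 families, all on the plus strand. By sequence 4 of them are copies of members, with 1 hairpin lying whole within the other: Gm25022 of Mir467a, Gm25943 of Mir466b, Gm25285 of Mir466c and Gm26092 of Mir669a. None of the 48 was detected. Gm22072 had 2 counts in replicate 1 and 1 in replicate 2, Gm22239 had 1 and 0, and the other 46 had 0 counts. Of the 48, 22 have no 22-base window of their own. No read fell on the strand opposite to any of the 81 members or the 48 other models, and the counts that ignore strand equalled those on the gene's strand for all 81 members.

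For comparison, part of another imprinted microRNA region was taken, the 28 microRNA genes wholly inside the annotated Meg3, Rian, Mirg and Rtl1 on chromosome 12. Of these 22 were detected, and they held 15.6% ± 1.05 of the counts (SD, n = 2). Genes of that region outside the 4 annotated spans, many of them detected, were left out, so these values do not give its full size. Only 1 of these 28 shares an 18-base stretch with another microRNA gene, against 70 of the 71 members inside Sfmbt2, so the shares are not measured alike. Of the cluster from Mir290a to Mir295, which like the Sfmbt2 cluster is known from embryonic stem cells and early embryos, 0 of 8 genes were detected, with 2 counts in replicate 1 and 1 in replicate 2. Only 2 of those 8 share such a stretch. The 8 detected Sfmbt2 hairpins were counted in the same libraries.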

How the data were processed

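Small RNA libraries of left cerebral cortex were sequenced. Each deposited file is a table of raw counts, not normalized, for 2202 microRNA genes after 4 rows of unassigned reads. They name the mm10 assembly and GENCODE M21, per the file descriptions deposited beside them; the columns are laid out as STAR's gene counts are, but which aligner or counter was used is not given in the sources used here. Symbols, positions and hairpins came from GENCODE M21, and mature sequences from RefSeq.

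Counts on the gene's strand were scaled to CPM by their sum over genes (4111167 and 3189903). Detection needed 10 counts in each library. Exact binomial tests (scipy 1.17.1, threshold 0.05) covered all 406 detected genes. They were also run on simulated counts that held read-sampling noise only, the noise the test assumes. That run therefore does not bear on other sources of difference between the libraries. TMM sizes (edgeR 4.0.16) and DESeq2 1.42.0 size factors, both over detected genes, were alternatives. Shared sequence was sought as exact stretches of 18 or 22 bases on both strands of all hairpins. Hairpins were aligned with Biopython 1.88.

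Members named are those with at least 1 count, the genes nearest in level to the leading member, and members singled out after their values were seen; of the other microRNA models in Sfmbt2, those with a count. The members, lists and tests were chosen with earlier results of these data known.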

Additional observations from a re-analysis of the deposited data

Results flagged for a closer look

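Reads outside the counts used were many: in replicate 1 39.1% of all reads, and in replicate 2 41.4%, had matched more than 1 genomic position. A limit set by a count of 0 does not cover these reads, and there were no control samples. How many of them come from the Mir297, Mir466, Mir467 and Mir669 families was not analysed here.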

How the results depend on the processing

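Counts of families with near-identical copies are limited by the reads left out as well as by depth. The main results were recomputed under alternatives 32 times. Of these values 29 stayed within the tolerance (1 SD for shares, 1.5 times for counts of genes) and 3 did not. Some of the 29 were fixed beforehand and say nothing of stability. Counts that ignore strand equalled those on the gene's strand for all 81 members, so only the total could change. Keeping only members inside Sfmbt2 could not change the number detected, because 0 members outside were detected. With all reads as the total, the members held 0.0650%, which follows from the larger total. Without Mir467d they held 0.0997%, which follows from the counts removed. With no count minimum, 1 member outside Sfmbt2 (Mir466q) had a count in each library. Without either replicate the members' share ranged from 0.155 to 0.201%, and 8 members were detected each time. At a minimum of 1 or 50 counts, 11 or 6 members were detected. Of 39 alternative values of single members' ratios, 37 kept their direction and call; Mir669e, at a log2 ratio of -0.02, stood at 0.0635 with TMM and 0.0667 with DESeq2 sizes, without passing the test. These sizes raise every log2 ratio by 0.08. Of the 3 members lower in replicate 2, each stayed so at all settings run. The test of differences has no value without a replicate. A window of 18 bases, chosen after seeing the data, also gave 32 members without a window of their own. No paired analysis was possible because there was 1 group.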
